A study of Homo sapiens with 6 samples.

Results

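The genes described here were listed around the integrated stress response, and their mRNA was measured in T47D cells after a miR-489 mimic. Among them are ATF4, other transcription factors and stress regulators, and enzymes of serine, glycine, asparagine and proline synthesis and of folate metabolism. Amino acid transporters and cytosolic tRNA synthetases complete the list. Whether each gene is a target of this response in T47D cells was not tested. The genes were chosen by name, as all array probes that the platform annotation assigns to 40 listed genes. Of these, 39 had a listed probe, with 53 probes in all, and 37 genes with 46 probes passed the filter on dim probes, out of 10503 genes that passed it on the whole array. T47D is an oestrogen receptor-positive line of luminal breast cancer cells. Cells grown in serum-containing RPMI medium received either a miR-489 mimic or a scrambled control siRNA by transfection, and their RNA was isolated after 72 h. Each group had 3 arrays with replicate numbers 1 to 3, so each value below compares 3 mimic arrays with 3 scramble arrays of transfected cells, and no untransfected sample was analysed here. Whether replicates were separate cultures is not stated, so a p-value covers only the spread among these arrays, which may be technical.

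ATF4 is a transcription factor whose translation rises when stress kinases phosphorylate the initiation factor eIF2 and slow general protein synthesis. With partners of the C/EBP family it binds composite elements near genes for amino acid synthesis, amino acid uptake and tRNA charging, and in cancer cells it keeps up the supply of serine, glycine and one-carbon units for nucleotide synthesis. Because ATF4 is controlled largely at translation, an array that measures its mRNA does not measure its activity.

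Neither the arm nor the sequence of the mimic is named in the labels. The mature miR-489 sequence in RefSeq (GRCh38.p14, chr7:93483947-93483968, minus strand) is shown because the mimic is named after it, with the seed, bases 2 to 8 from the 5′ end, in capitals.

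hsa-miR-489-3p: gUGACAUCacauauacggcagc

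The core of the C/EBP-ATF composite element, TGATGNAA, was searched on both strands in RefSeq promoter windows of 300 bases (250 before to 50 after each annotated start, GRCh38.p14). Of the 40 listed genes 33 had a promoter entry, and 14 of these (42.4%) held the letters in at least 1 window. The share was 4.46% of 27305 genes with an entry, and per window it was 29.1% of 55 windows of the listed genes against 3.62% of 35116. The list was built around described ATF4 targets, so this difference is no independent result, and a match is neither a bound site nor a cause. By role the letters were in 7 of 10 tRNA synthetase genes, 3 of 5 transporter genes, 2 of 8 genes of amino acid synthesis and folate metabolism and 2 of 10 regulator genes.

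The 30-base windows below belong to the measured genes with the motif that changed with the mimic (CEBPG, NARS1, SLC1A4 and SLC1A5) and to ASNS and TARS1, whose mRNA did not pass the test. Each is written 5′ to 3′ on the strand of its gene, with the motif or its reverse complement in capitals. The windows lie at chr19:33374060-33374089 (plus strand), chr18:57621804-57621833 (minus), chr2:64989381-64989410 (plus), chr19:46784893-46784922 (minus), chr7:97872458-97872487 (minus) and chr5:33440956-33440985 (plus) in that order.
CEBPG: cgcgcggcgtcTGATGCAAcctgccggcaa
NARS1: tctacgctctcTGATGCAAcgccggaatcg
SLC1A4: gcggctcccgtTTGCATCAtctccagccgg
SLC1A5: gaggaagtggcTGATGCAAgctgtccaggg
ASNS: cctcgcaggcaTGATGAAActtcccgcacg
TARS1: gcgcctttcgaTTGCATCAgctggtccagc
Read on its own strand, the motif was TGATGCAA in 11 of the 14 genes, TGATGAAA in ASNS and GARS1, and TGATGTAA in SLC3A2. Among the 12 measured genes with the motif, 2 rose and 2 fell, and among the 19 measured genes with a promoter entry and no match in it, 3 rose and 2 fell. Over all 10503 measured genes 18.4% rose and 17.3% fell. The counts by motif are small and were not tested.

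All 10 luminal markers fixed for T47D were detected on all 6 arrays, and most of them changed with the mimic. SPDEF (-1.58), ERBB3 (-1.32), ESR1 (-1.16), FOXA1 (-1.05), XBP1 (-0.89) and KRT19 (-0.51) fell on the log2 scale, KRT8 rose (0.46), and GATA3, PGR and KRT18 did not pass the test (6 lower and 1 higher of 10 at a limma adjusted p below 0.05). The part of these changes in the results below was not tested. Of the markers of other cell types, none of 5 endothelial markers was detected on any array, 1 of 5 fibroblast markers (COL1A1) was detected on all 6, and of 5 leukocyte markers CD68 was detected on all 6 and CD79A on 1 array. CD68, also a gene of lysosomes, changed by -0.59 on the log2 scale (limma adjusted p = 0.00717), and the defining markers PTPRC and CD3E were not detected. Values below are log2 intensities after background correction and quantile normalization. A gene is said to have risen, fallen or changed when limma's adjusted p, taken over all 17104 probes that passed the filter, was below 0.05, and a log2 fold change is followed by its standard error in that fit (n = 3 per group). Each gene is given by its brightest probe, and a level is never compared between genes.

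Of the 37 measured genes, 6 rose and 8 fell with the mimic, and 23 did not pass the test. Over all 10503 genes 35.7% were called, 18.4% higher and 17.3% lower, so the count of 14 called genes (37.8%) lies near the background of the array. The median log2 fold change was -0.02 in the list and 0.03 over all genes. The 2 groups of arrays did not overlap in 16 of the 37 genes, against 51.4% of all genes. The largest fall was that of PYCR1 (log2 -2.18) and the largest rise that of LARS1 (0.90).

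**Figure D1:**
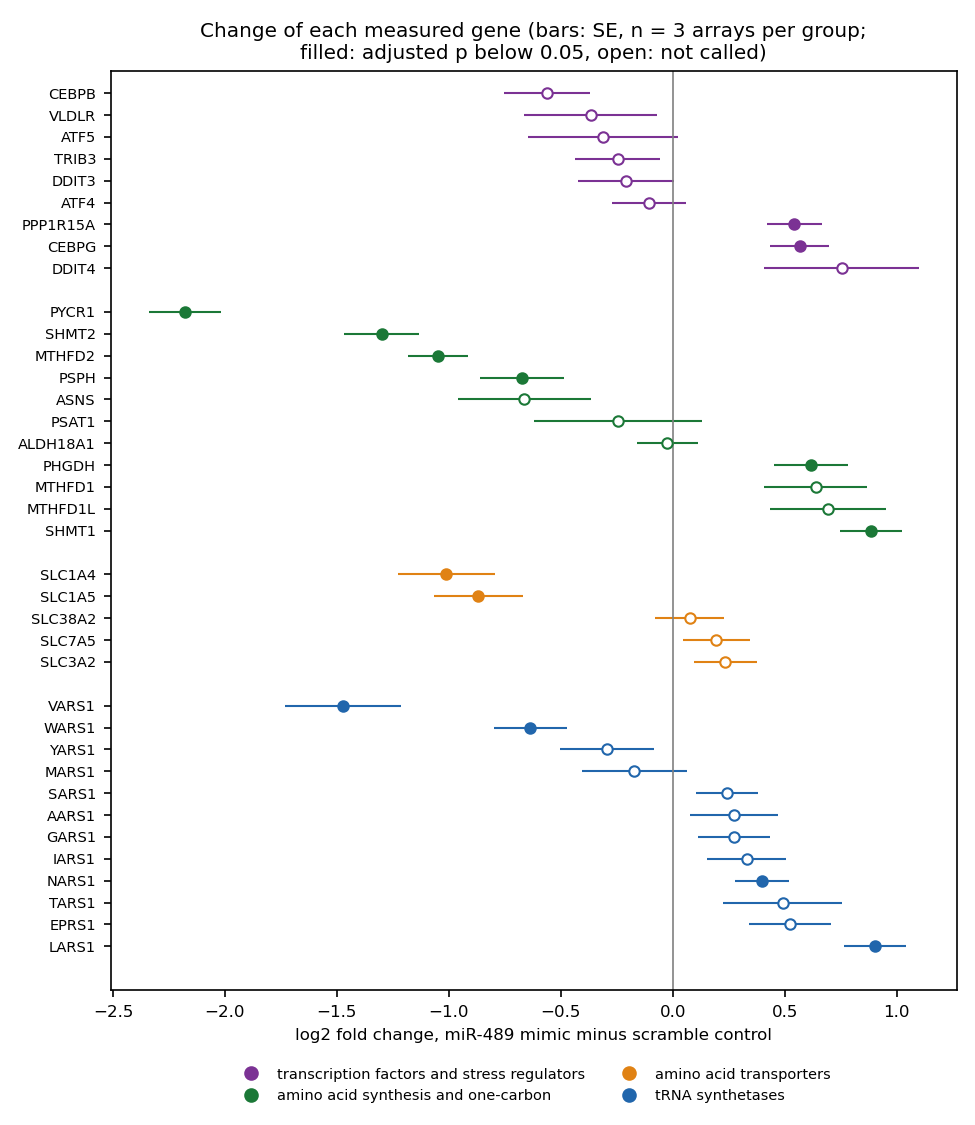
Log2 fold change (mimic minus scramble control, horizontal axis) of each of the 37 measured genes, grouped by role, with standard errors from limma; filled points passed the test and open points did not. The falls of PYCR1, SHMT2, MTHFD2 and VARS1 stand farthest to the left, and ATF4 lies near 0.

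Among the transcription factors and stress regulators, 2 of 9 measured genes rose, 0 fell and 7 did not pass the test (22.2% higher against 18.4% over all genes, 0% lower against 17.3%), with a median of -0.21. At an unadjusted p below 0.05 in limma, 2 were higher and 1 was lower. The mRNA of ATF4 was at 12.84, 12.70 and 12.96 on mimic arrays 1 to 3 and at 12.63, 13.15 and 13.04 on scramble arrays 1 to 3. The groups overlapped, and the log2 fold change was -0.11 ± 0.17 with a 95% interval of -0.49 to 0.28 (limma adjusted p = 0.656). The other 2 probes of ATF4 were at -0.28 ± 0.29 and -0.14 ± 0.15, likewise not called. No probe of ATF4 thus passed the test in either direction.

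CEBPG, a C/EBP factor that pairs with ATF4, was at 9.67, 9.80 and 9.75 with the mimic and at 8.998, 9.29 and 9.22 with scramble. Every mimic array lay above every scramble array, and the gene rose 1.48-fold (log2 0.57 ± 0.13, limma adjusted p = 0.0130). PPP1R15A encodes GADD34, a regulatory subunit of the phosphatase that removes phosphate from eIF2. The gene was at 9.24, 9.24 and 9.27 with the mimic and 8.84, 8.58 and 8.69 with scramble. It rose 1.46-fold (0.54 ± 0.12, limma adjusted p = 0.0123), with groups that did not overlap, and the call was lost when the arrays numbered 2 were left out of both groups.

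The other 6 measured regulators did not pass the test either. DDIT3, which encodes the pro-apoptotic factor CHOP, was at -0.21 ± 0.21, with an interval of -0.70 to 0.28. TRIB3, a pseudokinase that restrains ATF4 and AKT, was at -0.25 ± 0.19, with an interval of -0.69 to 0.19. ATF5, a related factor, was at -0.31 ± 0.33, and VLDLR, a lipoprotein receptor, was at -0.37 ± 0.30. CEBPB, a C/EBP factor with many inducers, was lower on each mimic array than on each scramble array (-0.56 ± 0.19) but missed the threshold (limma adjusted p = 0.0537), and it passed under 12 of the 19 alternatives that were run, among them the authors' values (adjusted p = 0.0382). DDIT4, which encodes REDD1, an inhibitor of mTORC1, was at 0.75 ± 0.34 with a wide interval of -0.04 to 1.55. Its mimic arrays were at 10.03, 11.05 and 9.88, so array 2 stood above the others. The probe of CHAC1, a glutathione-degrading enzyme, was detected on 0 of 3 mimic arrays and 1 of 3 scramble arrays and did not pass the filter.

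Among 11 genes of amino acid synthesis and folate metabolism, 4 fell, 2 rose and 5 did not pass the test (36.4% lower against 17.3% over all genes, 18.2% higher against 18.4%), with a median of -0.25. PYCR1, the mitochondrial reductase that completes proline synthesis, was at 7.81, 7.59 and 7.66 with the mimic and 9.64, 10.15 and 9.80 with scramble. The groups lay well apart, and the gene fell 4.52-fold (log2 -2.18 ± 0.16, limma adjusted p = 0.000183), which put it 42nd among the falls of all 10503 genes. Its second, dimmer probe also fell, by less (-0.75 ± 0.16), and in the authors' values the brighter probe was at -1.48. The size of the fall thus differed between probes and between the processed values and those used here, while under median scaling (-2.09) and cyclic loess (-2.22) it stayed close. ALDH18A1, which makes the precursor of proline and ornithine one step earlier, was at -0.02 ± 0.14 with an interval of -0.34 to 0.29.

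Mitochondrial serine breakdown feeds one-carbon units to the cell through SHMT2 and MTHFD2, while SHMT1 and MTHFD1 carry the matching reactions in the cytosol. SHMT2 was at 10.53, 10.30 and 10.65 with the mimic and 11.51, 11.97 and 11.89 with scramble. It fell 2.46-fold (-1.30 ± 0.17, limma adjusted p = 0.00112), with groups that did not overlap. MTHFD2, the mitochondrial dehydrogenase and cyclohydrolase, was at 10.25, 10.10 and 10.41 with the mimic and 11.27, 11.23 and 11.40 with scramble, and it fell 2.07-fold (-1.05 ± 0.13, limma adjusted p = 0.00109). Both falls kept their call under every alternative that was run.

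The cytosolic isozyme SHMT1 moved the other way. It was at 10.59, 10.56 and 10.81 with the mimic and 9.94, 9.68 and 9.69 with scramble, and it rose 1.85-fold (0.88 ± 0.14, limma adjusted p = 0.00253). All 3 of its probes rose, the dimmer pair by 1.03 ± 0.15 and 0.80 ± 0.13. MTHFD1, the cytosolic enzyme with 3 activities, was at 0.64 ± 0.23 and missed the threshold (adjusted p = 0.0664), as did MTHFD1L, the mitochondrial synthetase that releases formate (0.69 ± 0.26, adjusted p = 0.0716). These genes passed under 8 and 5 of the 19 alternatives.

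The change of SHMT2 differed from that of SHMT1 by -2.18 ± 0.23 on the log2 scale, and the change of MTHFD2 from that of MTHFD1 by -1.68 ± 0.26. In both pairs the within-array differences of the 3 mimic arrays lay below those of all 3 scramble arrays. The two-sided exact permutation test gave p = 0.1 for each, the smallest that 3 against 3 arrays allow, so it could not pass 0.05 (p = 0.15 after adjustment over 3 pairs). MTHFD1L differed from MTHFD1 by 0.06 ± 0.19 (exact p = 0.8), the former being mitochondrial and the latter cytosolic.

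**Figure D2:**
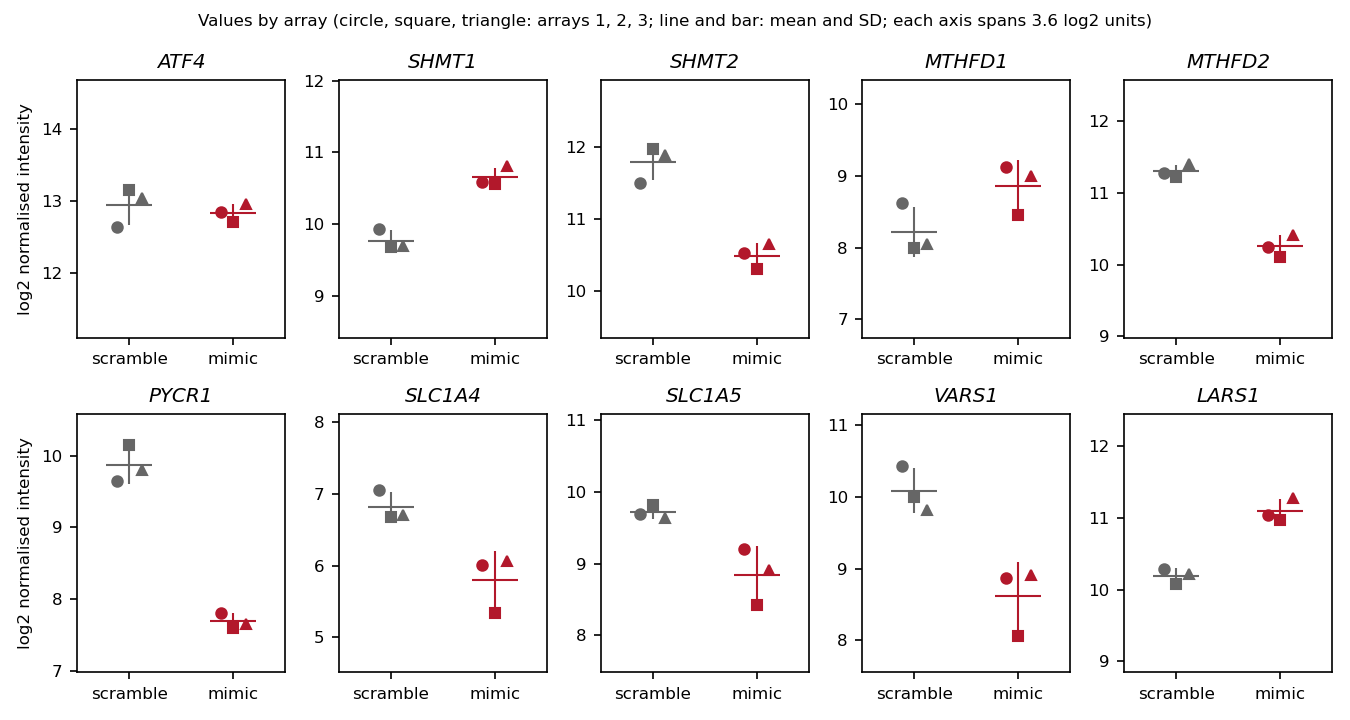
Log2 normalised intensity (vertical axis) of 10 genes on each scramble and mimic array, with symbols for arrays 1 to 3 and the mean and SD of each group. SHMT1 and LARS1 are higher and SHMT2, MTHFD2, PYCR1, SLC1A4, SLC1A5 and VARS1 lower on all mimic arrays, ATF4 and MTHFD1 overlap, and mimic array 2 is lowest of its group in each of these 10 genes.

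The 3 enzymes that make serine from a glycolytic intermediate did not move together. PHGDH, the first, was at 12.01, 11.86 and 11.996 with the mimic and 11.02, 11.44 and 11.56 with scramble, and it rose 1.53-fold (0.62 ± 0.16, limma adjusted p = 0.0221). PSAT1, the second, was at -0.25 ± 0.37 with an interval of -1.11 to 0.62, and its mimic arrays ran from 7.58 to 9.02. PSPH, the last, fell 1.60-fold (-0.67 ± 0.19, limma adjusted p = 0.0261), and its second probe agreed in direction and call (-0.62 ± 0.20). The call of PHGDH was lost without mimic array 1 or 3, and that of PSPH without scramble array 2 or 3, any 1 mimic array or the filter on dim probes. Both were also lost with the arrays numbered 2 left out of both groups. ASNS, asparagine synthetase and a standard reporter of ATF4, was at 9.66, 8.65 and 9.67 with the mimic and 9.60, 10.17 and 10.20 with scramble. The groups overlapped through mimic arrays 1 and 3 and scramble array 1, and its change of -0.66 ± 0.30 did not pass (limma adjusted p = 0.120).

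Among 5 measured amino acid transporters 2 fell, 0 rose and 3 did not pass the test (40.0% lower against 17.3% over all genes), and 0 were higher at an unadjusted p below 0.05 in limma. Both that fell belong to the SLC1 family and exchange neutral amino acids. SLC1A5, the glutamine transporter ASCT2, was at 9.21, 8.43 and 8.91 with the mimic and 9.70, 9.82 and 9.63 with scramble, and it fell 1.83-fold (-0.87 ± 0.20, limma adjusted p = 0.0125). SLC1A4, the alanine and serine exchanger ASCT1, was at 6.01, 5.34 and 6.06 with the mimic and 7.06, 6.67 and 6.71 with scramble, and it fell 2.02-fold (-1.01 ± 0.22, limma adjusted p = 0.00940). Its signal is low, and the fall was smaller in the authors' values (-0.28, adjusted p = 0.0198). In both genes the groups did not overlap, and both kept their call under every alternative that was run.

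SLC7A5, the large neutral amino acid exchanger LAT1, was at 0.19 ± 0.15, and SLC38A2, the sodium-coupled transporter SNAT2, was at 0.07 ± 0.16. SLC3A2, the heavy chain that carries SLC7A5 to the membrane, was at 0.24 ± 0.14 by its brighter probe and not called, while its dimmer probe rose (0.70 ± 0.16, limma adjusted p = 0.0135), so its probes disagree on the call. SLC7A11, the cystine transporter of the same heavy chain, was not detected on any of the 6 arrays and has no fold.

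Among 12 measured cytosolic tRNA synthetases 2 rose, 2 fell and 8 did not pass the test, 33.3% called against 35.7% over all genes, with a median of 0.27. VARS1, which charges valine tRNA, was at 8.87, 8.06 and 8.91 with the mimic and 10.44, 10.00 and 9.82 with scramble. It fell 2.77-fold (-1.47 ± 0.26, limma adjusted p = 0.00418), with groups that did not overlap. LARS1, the leucine enzyme and a leucine sensor of the mTORC1 pathway, was at 11.04, 10.96 and 11.28 with the mimic and 10.28, 10.07 and 10.22 with scramble, and it rose 1.87-fold (0.90 ± 0.14, limma adjusted p = 0.00235). Both kept their call under every alternative that was run.

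WARS1, the tryptophan enzyme, which interferon gamma also induces, was at 10.25, 10.01 and 10.52 with the mimic and 11.05, 10.85 and 10.79 with scramble. It fell 1.55-fold (-0.64 ± 0.16, limma adjusted p = 0.0193), and its dimmer probe fell 1.45-fold (-0.53 ± 0.17, adjusted p = 0.0453). The call of the brighter probe was lost without scramble array 1 or mimic array 1, and with the arrays numbered 2 left out of both groups. NARS1, the asparagine enzyme, was at 11.91, 11.94 and 11.97 with the mimic and 11.44, 11.53 and 11.64 with scramble. It rose 1.32-fold (0.40 ± 0.12, limma adjusted p = 0.0349) with groups that did not overlap, but the call was lost when any 1 array or both arrays numbered 2 were left out, and with cyclic loess.

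The other 8 synthetases lay between -0.29 (YARS1, tyrosine) and 0.52 (EPRS1, glutamate and proline). EPRS1 was higher on every mimic array (0.52 ± 0.18) and missed the threshold (limma adjusted p = 0.0571). It passed under 9 of the 19 alternatives, among them the authors' values (limma adjusted p = 0.0385). TARS1 (threonine) was at 0.49 ± 0.26, IARS1 (isoleucine) at 0.33 ± 0.18, GARS1 (glycine) at 0.27 ± 0.16, AARS1 (alanine) at 0.27 ± 0.20, SARS1 (serine) at 0.24 ± 0.14 and MARS1 (methionine) at -0.17 ± 0.23. CARS1 (cysteine) had no listed probe and was not analysed here.

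Mimic array 2 stood below the other mimic arrays in most of these genes. It was the lowest mimic array in 30 of the 37 measured genes (81.1%), against 40.7% of all genes, and mimic array 3 was the highest in 24. By role it was lowest in 11 of 11 genes of amino acid synthesis and folate metabolism, in 11 of 12 tRNA synthetases, in 4 of 5 transporters and in 4 of 9 regulators. The median deviation of mimic array 2 from its group mean was -0.33 in the synthetases, -0.15 in the synthesis genes and -0.0007 over all genes. Among the scramble arrays, array 1 was lowest in 18 of 37 genes (48.6%, against 37.9% of all genes). TARS1 shows the pattern, with mimic arrays at 10.98, 9.97 and 10.99 and scramble arrays between 10.10 and 10.21. PSAT1 and ASNS were likewise lowest on mimic array 2. Mimic array 2 was the highest of its group in 5 of the 37 genes (13.5%, against 39.5% of all genes). These were DDIT4, CEBPB, CEBPG and VLDLR among the regulators, and SLC38A2.

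Without mimic array 2 the number of listed genes that rose was 11 in place of 6, and 9 fell in place of 8. This array was singled out because it was lowest in most of these genes. Leaving it out therefore raises their mimic means, and the added rises are no independent result. Over all genes 1805 (17.2%) were then higher and 1784 (17.0%) lower, against 1933 and 1819 with all arrays. The synthetases then held 5 that rose in place of 2, and the synthesis genes 4 in place of 2. TARS1 (0.83, limma adjusted p = 0.00424), EPRS1 (0.71, adjusted p = 0.0102), IARS1 (0.50, adjusted p = 0.0393) and MTHFD1L (0.98, adjusted p = 0.00793) were among those that passed. Leaving out the array did not bring ATF4 (-0.041) or ASNS (-0.33) past the threshold.

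**Figure D3:**
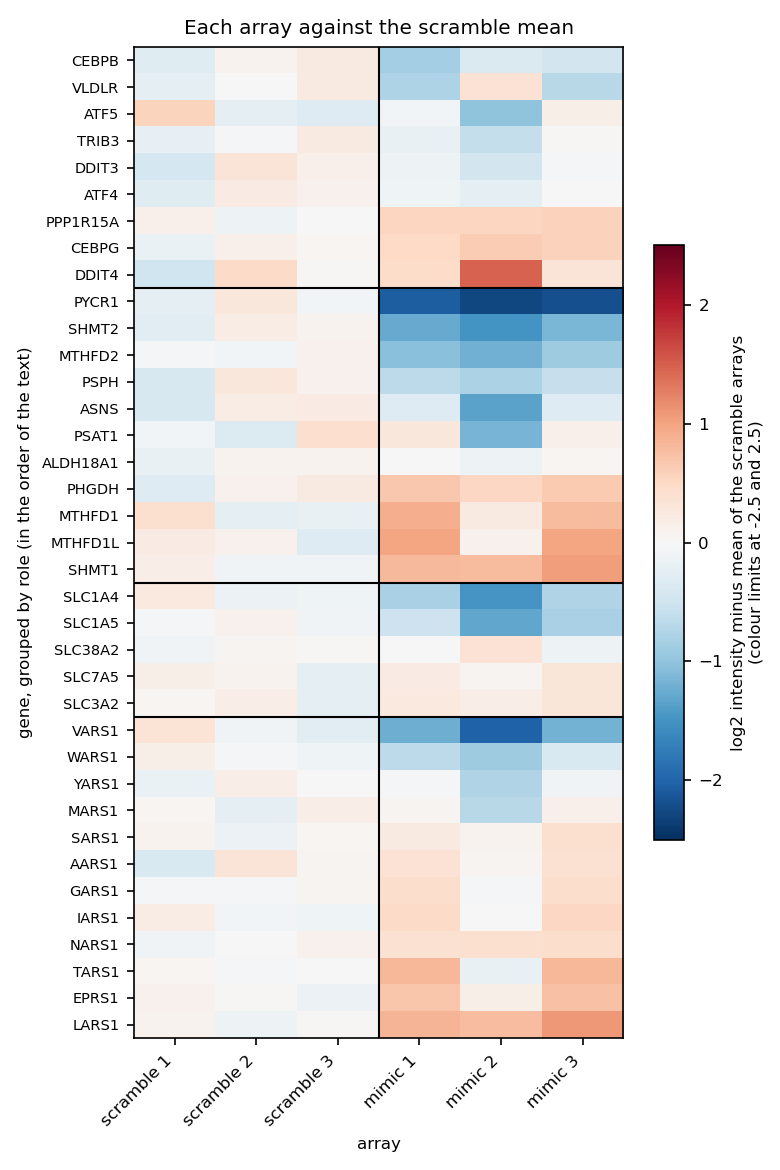
Log2 intensity of each of the 37 measured genes on each array, minus the mean of the 3 scramble arrays of that gene (red higher, blue lower), with genes grouped by role. In most amino acid synthesis and tRNA synthetase rows mimic array 2 is bluer or paler than mimic arrays 1 and 3, while PYCR1, SHMT2, MTHFD2 and VARS1 are blue on all 3 mimic arrays.

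The wider pathway was read from lists of genes outside the 40. A list of 14 genes held the eIF2 kinases, eIF2 and its exchange factor eIF2B. It also held PPP1R15B and GCN1, which belong to none of these. Of the 14, 5 fell, 3 rose and 6 did not pass the test (35.7% lower against 17.3% over all genes, 21.4% higher against 18.4%). PPP1R15B was among the rises (0.43 ± 0.14, limma adjusted p = 0.0407), beside EIF2B1 and EIF2B3, and GCN1 did not pass. With the authors' values PPP1R15B missed the threshold (0.12, limma adjusted p = 0.127). The 5 falls became 2 without scramble array 2, scramble array 3 or mimic array 1, and 3 without scramble array 1 or mimic array 3. The 3 rises became 1 without scramble array 2 or 3 or any 1 mimic array. EIF2AK1, the haem-regulated eIF2 kinase, fell 2.19-fold (-1.13 ± 0.14, limma adjusted p = 0.000838), with mimic arrays from 11.82 to 12.01 and scramble arrays from 12.87 to 13.18. Over the mean of its probes the fall was larger (-1.89). The eIF2 subunits EIF2S2 (-0.58 ± 0.14) and EIF2S3 (-0.56 ± 0.13) fell, but the call of EIF2S2 was lost without mimic array 3, and that of EIF2S3 without scramble array 2 or 3, mimic array 1 or both arrays numbered 2. EIF2S1 also fell (-0.46 ± 0.15), close to the threshold (limma adjusted p = 0.0479). EIF2B3, a subunit of the exchange factor, rose 2.38-fold (1.25 ± 0.20). Its other subunits did not move together: EIF2B1 rose (0.39 ± 0.12), EIF2B2 fell (-0.51 ± 0.14), and EIF2B4 and EIF2B5 were not called. Of the other kinases, chosen after their values were seen, EIF2AK3 (the endoplasmic reticulum kinase PERK) was at -0.15 ± 0.16 and EIF2AK2 (the RNA-activated kinase PKR) at -0.05 ± 0.17, neither called. EIF2AK4 (the amino acid sensor GCN2) was at -0.30 ± 0.12 and was not called either (limma adjusted p = 0.0828). It was lower on each mimic array than on each scramble array, and it passed in the authors' values (limma adjusted p = 0.0161).

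Of 22 measured genes described elsewhere as ATF4 targets, 5 rose, 5 fell and 12 did not pass the test (22.7% in each direction, near the 18.4% higher and 17.3% lower over all genes). The 5 rises include CTH (0.52 ± 0.15), which was detected on 3 mimic arrays and 1 scramble array. CTH thus passed the filter on dim probes through its mimic arrays, where it was high. It was not called in the authors' values (0.09, limma adjusted p = 0.229), and 4 genes rose with detection on all 6 arrays. The 5 rises became 1 without mimic array 3, 2 without scramble array 2 and 3 without scramble array 3 or mimic array 1. LONP1, the mitochondrial matrix protease, was at 7.78, 7.81 and 8.07 with the mimic and between 9.46 and 9.54 with scramble, and it fell 3.09-fold (-1.63 ± 0.13, limma adjusted p = 0.000239). STC2, a secreted glycoprotein that oestrogen also induces, changed by -1.21 ± 0.18, and SLC6A9, a glycine transporter, by -1.06 ± 0.22 (-0.33 in the authors' values). SLC7A1, a transporter of cationic amino acids, rose 1.94-fold (0.96 ± 0.19).

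The proteins AIMP1, AIMP2 and EEF1E1 of the synthetase complex were listed but not measured. Among 6 other measured cytosolic synthetases, QARS1, the glutamine enzyme, fell 2.86-fold (-1.52 ± 0.16, limma adjusted p = 0.000599) and 5 did not pass the test (16.7% lower against 17.3% over all genes). It was at 10.78, 10.64 and 11.11 with the mimic and 12.19, 12.37 and 12.51 with scramble. Of 15 mitochondrial synthetases, NARS2 (1.13 ± 0.19) and MARS2 (0.71 ± 0.17) rose, AARS2 (-0.72 ± 0.13) fell and 12 did not pass the test, 20.0% called against 35.7% over all genes. The call of MARS2 was lost without scramble array 3 or mimic array 3. Of 12 other measured genes of folate, serine and glycine metabolism 4 rose (33.3% against 18.4% over all genes) and 0 fell (0 also at an unadjusted p below 0.05 in limma). The genes that rose were PPAT (0.70 ± 0.15), GART (0.86 ± 0.17) and ATIC (0.46 ± 0.13), which catalyse steps of purine synthesis, and GCSH (0.77 ± 0.16) of the glycine cleavage system. The call of ATIC was lost without any 1 scramble array and without mimic array 1 or 3. Of 12 genes of the other branches of the unfolded protein response 5 fell (41.7% against 17.3% over all genes) and 0 rose (1 was higher at an unadjusted p below 0.05 in limma). Those that fell included XBP1 (-0.89 ± 0.12), the chaperone gene HSPA5 (-0.96 ± 0.21), PDIA4 (-0.62 ± 0.18) and SEL1L, which was below detection on all mimic arrays and fell at least 2.01-fold (-0.29 in the authors' values). SEL1L passed the filter on dim probes only through its scramble arrays, so the count of 5 includes a gene kept because it was high there. The 5 falls became 3 without scramble array 1 or mimic array 3, and the call of PDIA4 was lost without either of these, without scramble array 3 or with no filter on dim probes.

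**Figure D4:**
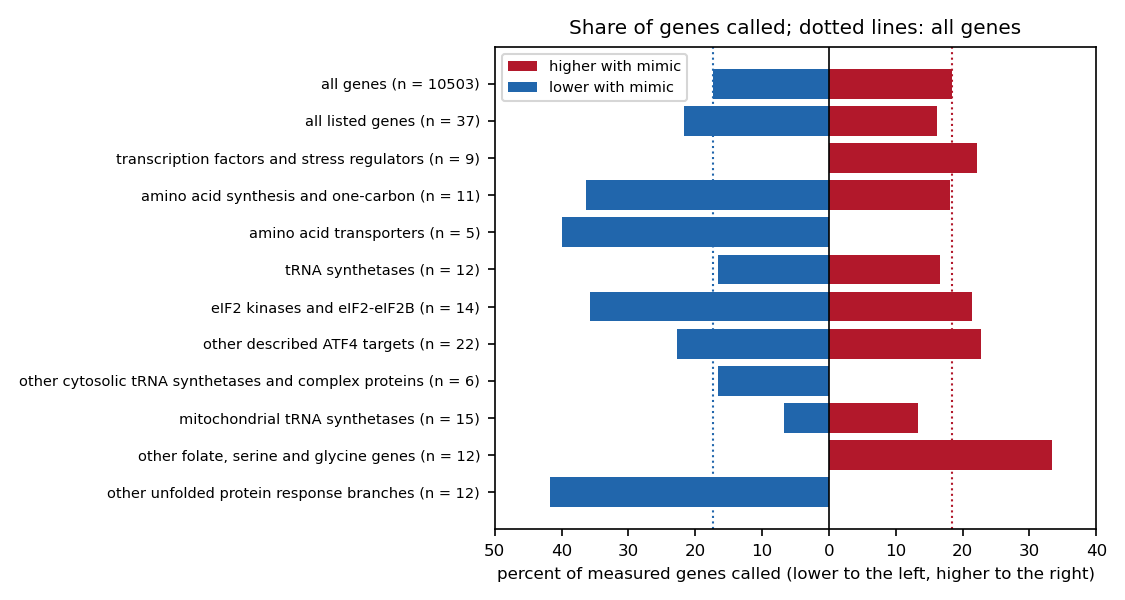
Percent of measured genes called lower (left, blue) or higher (right, red) with the mimic in each list, with the number measured in brackets and dotted lines at the shares over all 10503 genes (17.3% lower, 18.4% higher). The lists are small, and the bar for all 37 listed genes lies close to the dotted lines in both directions.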

How the data were processed

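Total RNA of T47D cells was hybridised to 1-colour Illumina arrays (6 in all). For 47322 probes, one deposited table holds the intensity, not normalized, and the detection p-value per array, per the file headers. The authors' processed intensity values, on a linear scale with a median of 200.783 in every column, come from lumi 3.2.2 per the submitters' processing notes, without settings. Their centring and transform stay unknown, and they served as an alternative. Each processed column correlated best with its own array (r at least 0.891, against at most 0.713 for another).

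Background was removed by normexp from the detection p-values (nec, offset 16), arrays were quantile-normalized, and log2 was taken (limma 3.58.1, R 4.3.3). A probe needed a detection p below 0.01 on at least 3 of 6 arrays. Groups were compared with lmFit and eBayes, two-sided, Benjamini-Hochberg over 17104 probes. Array correlations were 0.982 to 0.993 within and 0.945 to 0.958 between groups, 16452 to 17346 probes were detected, and mean intensity ran from 526 to 619; the number of arrays limits the precision. Probes were named by Entrez identifier through the platform annotation and a RefSeq table of GRCh38.p14: 30113 had 1 symbol, 8 several and 17201 were not listed. A probe detected on no array of a group has only a bound, printed as "at least": the bright mean against the dim mean, in which each array counts with its lowest detected value if that exceeds the probe's own.

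The genes and lists were chosen with earlier results of these data known. Every listed gene is named. Values by array are given for ATF4 and for up to 4 called genes per role with the largest change. Those of PHGDH, PSAT1, ASNS, TARS1, DDIT4, EIF2AK1, QARS1 and LONP1 were added after their values were seen. From each other list up to 4 called genes are named, and CTH, EIF2S1, EIF2B1, EIF2B2 and PPP1R15B were added after their values were seen. The alternatives changed background correction, scaling, input values, dim-probe filter, probe choice, variance model, array weights and replicate block, or left out arrays. The fit was also run on simulated independent arrays with far fewer changed probes than were called here, as a check of the code only. The labels do not say whether same-numbered arrays are paired, and they were treated as unpaired. Deviations of same-numbered arrays from their group means correlated at 0.356, 0.450 and -0.107. These values cannot decide it, because arrays with different numbers were not compared in the same way.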

Additional observations from a re-analysis of the deposited data

How the results depend on the processing

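Of the 14 called genes of the list, 9 kept their direction and call under all 19 alternatives (SHMT1, SHMT2, MTHFD2, PYCR1, SLC1A4, SLC1A5, LARS1, VARS1 and CEBPG), and 5 lost the call under at least 1. Of the 23 not called, 10 passed under at least 1 alternative. All 14 called genes were also called in the same direction in the authors' values, where all 37 kept their sign and 2 more passed. The folds of PYCR1 and SLC1A4 were over 1.5 times smaller there. The causes of the changes below were not tested.

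The number of listed genes that rose was 6, between 4 and 11 when arrays were left out (11 without mimic array 2) and 11 with array weights. With the replicate block 9 rose and 9 fell. Array weights also raised the count over all probes, from 5798 to 7238. Over all genes the 1933 rises became 1241 without mimic array 3, the range over left-out arrays being 1241 to 1805.

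Among regulators the 0 that fell became 1 with cyclic loess, median scaling, an offset of 50, no background correction, the replicate block, the mean over probes, trend and robust, detection on all 6 arrays or the authors' values, and 2 with array weights (0 to 2 over left-out arrays), while the 2 that rose ranged from 1 to 2. Among synthesis genes the 2 that rose became 4 with median scaling, trend and robust or array weights, and ranged from 1 to 4. Among transporters 1 rose with the mean over probes. Among the synthetases the 2 that rose became 1 with cyclic loess and 5 with array weights and ranged from 1 to 5, and the 2 that fell ranged from 1 to 2.

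In the eIF2 list the 3 that rose became 1 with no filter or with detection p below 0.05 and ranged from 1 to 2, and the 5 that fell became 3 with median scaling and ranged from 2 to 4. The 5 other ATF4 targets that rose became 3 with no filter and ranged from 1 to 4. Among other cytosolic synthetases 1 rose with trend and robust, with no background correction or by the authors' values, and 2 with array weights. Among mitochondrial synthetases the 1 that fell became 2 without background correction, with an offset of 50, cyclic loess, the replicate block or trend and robust (range 1 to 2), and the 2 that rose ranged from 1 to 2. In the folate list 1 fell with the replicate block or array weights (range 0 to 1). In the unfolded protein list 1 rose by the authors' values and with no background correction, and the 5 that fell ranged from 3 to 5.

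The changes that turned sign were of genes that were not called either way: ATF5 (0.029 with array weights, range -0.54 to 0.031), ALDH18A1 (0.077 with median scaling, -0.12 to 0.077), SLC38A2 (-0.029 with array weights, -0.065 to 0.18), and, over left-out arrays, ATF4 (-0.26 to 0.061), DDIT3 (-0.43 to 0.069), PSAT1 (-0.51 to 0.21), MARS1 (-0.32 to 0.093) and YARS1 (-0.43 to 0.021). The difference of MTHFD1L from MTHFD1 was -0.076 without background correction, -0.013 with an offset of 50, -0.11 in the authors' values and -0.040 to 0.31 over left-out arrays. The folds of SLC6A9 and SEL1L were also over 1.5 times smaller in the authors' values, and that of SEL1L with no background correction. Whether the block matches a real pairing is not known, since the labels do not state one and the correlations of same-numbered arrays cannot decide it.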
